A study of Ovis aries with 8 samples.

Results

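Translation factors and aminoacyl-tRNA synthetases were followed in the lungs of sheep fetuses after 48 hours of aldosterone. Members were the non-control array probes whose description names a eukaryotic initiation factor, translation elongation factor 1 or 2, a peptide chain release factor or a tRNA synthetase or ligase, leaving out mitochondrial proteins and transcription elongation. Of 15008 probes, 8 met this rule, printed as 12 of 15208 spots, and they stood for 6 genes. By role these were 2 initiation factors (EIF1AX and EIF4A2), 1 elongation factor (EEF1D), 1 synthetase (SARS1) and 2 scaffold proteins of the multi-synthetase complex (AIMP2 and EEF1E1). No probe description held a peptide chain release factor, and the exclusions removed 0 probes. The family name thus covers more than the array measured under the rule: only 1 of the 6 genes is itself a synthetase.

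Aldosterone, the adrenal steroid that acts through the mineralocorticoid receptor, was infused at 0.2 mg over 48 hours into 1 fetus of each of 4 twin sets at about day 130 of a 147-day gestation. Its twin received vehicle, and in both groups the infusions began 5 days after surgery. Each of the 4 aldosterone and 4 control lungs gave RNA for its own 1-colour Agilent array, so a value describes the whole organ, in which fewer cells of a type and less RNA per cell cannot be told apart. The question of the comparison is which transcripts of the late-gestation lung differ after raised aldosterone.

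Protein synthesis begins when initiation factors bring the small ribosomal subunit to an mRNA and move it to the start codon. Elongation factor 1 then delivers each aminoacyl-tRNA to the ribosome, and the synthetases attach each amino acid to its tRNA beforehand. In mammals several synthetases are held in a large complex by scaffold proteins that carry no synthetase activity of their own. In the late-gestation lung this machinery serves both the growth of the tissue and the making of surfactant proteins by alveolar type II cells.

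The probes are 60-base oligonucleotides, and their letters show why 8 probes are not 8 independent measurements. For EIF4A2 and EEF1E1 the array carries a pair of probes cut from the same stretch of sequence, and the capitals mark the bases that the probes of a pair share, 40 for EIF4A2 and 59 for EEF1E1. EEF1D, SARS1 and AIMP2 have 1 probe each, given in lower case; that of EEF1D is printed 5 times on every array.
EIF4A2, A_70_P016562: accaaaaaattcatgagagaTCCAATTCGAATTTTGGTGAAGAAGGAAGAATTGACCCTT
EIF4A2, A_70_P016561: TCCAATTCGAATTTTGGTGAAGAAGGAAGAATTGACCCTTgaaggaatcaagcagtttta
EEF1E1, A_70_P045157: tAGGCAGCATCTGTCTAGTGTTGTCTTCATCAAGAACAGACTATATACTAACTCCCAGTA
EEF1E1, A_70_P045156: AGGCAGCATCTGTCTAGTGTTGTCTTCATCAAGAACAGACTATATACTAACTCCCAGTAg
EEF1D, A_70_P051271: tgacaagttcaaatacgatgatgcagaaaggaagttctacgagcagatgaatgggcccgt
SARS1, A_70_P029636: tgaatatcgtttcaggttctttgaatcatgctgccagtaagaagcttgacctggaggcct
AIMP2, A_70_P018281: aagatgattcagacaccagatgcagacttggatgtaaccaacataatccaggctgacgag
The sequences are those of the deposited array files. The EIF4A2 probes start at bases 216 and 236 of their target, an mRNA described there only as initiation factor 4A, and the name EIF4A2 rests on its gene ID in the RefSeq gene table. Whether they also bind transcripts of the paralogue EIF4A1 was not tested. The G and C content of the 8 probes ran from 35.0% for the upper EIF4A2 probe to 45.0% for EEF1D, SARS1 and AIMP2.

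All 8 probes were well above background on all 8 arrays, and none of their spots was saturated or marked as an outlier. Across the array, 76.5% (aldosterone replicate 4) to 85.4% (control replicate 4) of spots were well above background, and 12168 probes were tested. Of the 6 markers of alveolar type II cells, 4 were measured, the surfactant proteins SFTPA1, SFTPB, SFTPC and SFTPD. Their summed level was 8.83 to 9.30 in the controls and 8.54 to 9.23 after aldosterone, on the log2 scale relative to each array's 75th percentile, so the tissue carried defining transcripts of lung. Markers of dividing cells, 5 of 5 measured, all had a higher mean after aldosterone, with 0 past the adjusted threshold. In limma 4 had an unadjusted p under 0.05, as had 1.27% of all probes in the higher direction. For those 4, CCNA2, CDK1, TYMS and AURKA, the aldosterone lung of replicate 2 exceeded its same-numbered control most, by 1.67, 1.91, 1.29 and 1.19. The summed level of the 5 was 0.81 to 0.89 in the controls and 0.81 to 1.58 after aldosterone. Levels below are on this same log2 scale, and differences are aldosterone minus control with limma's moderated standard error.

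No difference between the groups passed the test for any of the 8 probes, and so for any of the 6 genes. In limma 0 of the 8 passed an adjusted p of 0.05, as did 0% of the 12168 probes tested, and 0 of the 8 had an unadjusted p under 0.05, where 1.27% of all probes did so in the higher and 0.6% in the lower direction. The groups overlapped for every one of the 8 probes, against 1.31% of all probes whose groups stood apart. With the replicate number as a block limma gave 0 of the 8 at either threshold, beside 0% and 4.43% of all probes. The differences of the 8 probes ran from -0.067 to 0.16, with a median of -0.017 beside 0.0073 over all probes, and 4 of the 8 had a higher mean, against 51.5% of all probes. Of the 8, 7 lay between the lower and upper quartile of all probes, at -0.11 and 0.14.

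**Figure D1:**
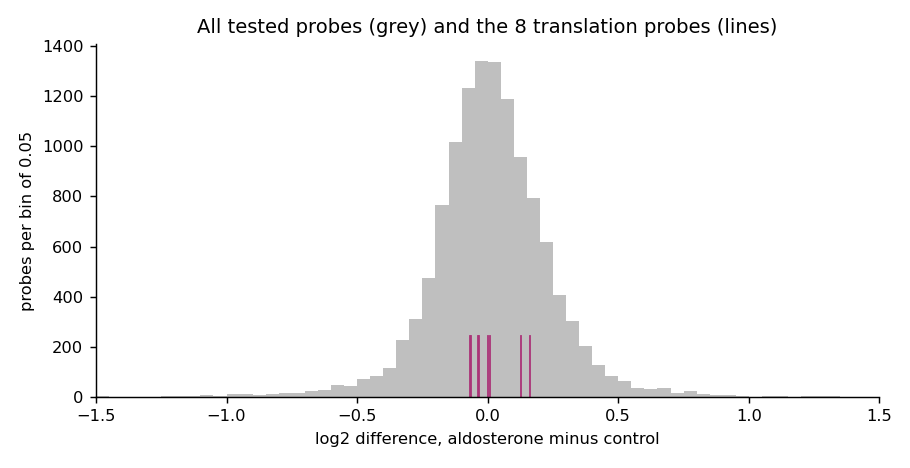
Histogram of the log2 difference, aldosterone minus control, over the 12168 tested probes (grey bars, number of probes per bin), with a vertical line for each of the 8 translation probes. The lines lie between -0.067 and 0.16, in the centre of the distribution; the axis stops at 1.5 on either side.

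EIF1AX is the X-linked form of initiation factor 1A, which binds the small ribosomal subunit and helps it scan for the start codon. Its level was 4.63, 4.54, 4.66 and 4.60 in controls 1 to 4 and 4.51, 4.74, 4.52 and 4.67 in the aldosterone lungs 1 to 4. All 8 lungs lay within a narrow band, and the highest and the lowest were both aldosterone lungs. The difference was 0.0010 ± 0.12 (SE, n = 4 per group; adjusted p = 1.00 in limma), and its 95% interval ran from 0.83-fold to 1.21-fold. The pooled standard deviation within groups was 0.088, lower than that of nearly all probes, at percentile 1.40 of the array.

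EIF4A2 is an RNA helicase that opens structure in the leader of an mRNA as part of the cap-binding complex. The brighter probe gave 2.20, 2.02, 2.01 and 1.96 in controls 1 to 4 and 2.01, 1.90, 1.87 and 2.15 in the aldosterone lungs. The aldosterone lung was below its same-numbered control in pairs 1 to 3 and above it in the fourth. The other probe gave 1.50, 1.48, 1.39 and 1.29 in the controls and 1.38, 1.31, 1.30 and 1.41 after aldosterone. It repeated the direction of each pair. The differences were -0.064 ± 0.13 and -0.067 ± 0.12 (SE, n = 4 per group; adjusted p = 1.00 in limma for each), with 95% intervals of 0.78-fold to 1.17-fold and 0.79-fold to 1.15-fold. The offset between the probes was -0.63 ± 0.067 (SD) over the 8 arrays, an SD close to the pooled SD of 0.077 within groups on the second probe. Their spread within groups lay at percentiles 4.32 and 0.764 of all probes.

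EEF1D is the delta subunit of elongation factor 1, part of the exchange complex that returns the GTP form to elongation factor 1 alpha. Its level was -1.04, -0.81, -0.63 and -0.61 in controls 1 to 4 and -1.003, -0.59, -0.45 and -0.40 in the aldosterone lungs. The aldosterone lung was higher than its same-numbered control in 4 of 4 pairs, by 0.033, 0.22, 0.18 and 0.21, while the groups as a whole overlapped. Over the array 7.68% of probes were higher in all 4 pairs. None of the 8 probes was lower in all 4, against 5.65% of all probes. The difference of 0.16 ± 0.18 (SE, n = 4 per group), or 1.12-fold, was the largest of the 8 probes and did not pass (unadjusted p = 0.383, adjusted p = 1.00 in limma), and its 95% interval ran from 0.85-fold to 1.48-fold. With the replicate number as a block the standard error was 0.11 and the unadjusted p in limma 0.182.

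The 5 EEF1D spots on each array give the error of reading within an array. Their standard deviation within an array ran from 0.021 to 0.090, with a median of 0.055, while the array means had a standard deviation of 0.24 over the 8 arrays. In the control lung of replicate 1 the spots lay between -1.08 and -0.93, and in that of replicate 3 between -0.65 and -0.60. The array means thus spread more than the spots within an array did. With 1 array per lung, that spread holds labelling, hybridisation and slide position as well as the lung. In pair 1 the spots of the aldosterone lung, -1.12 to -0.88, overlapped those of its control, whereas in pair 3 they lay at -0.50 to -0.41, above all 5 of its control.

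**Figure D2:**
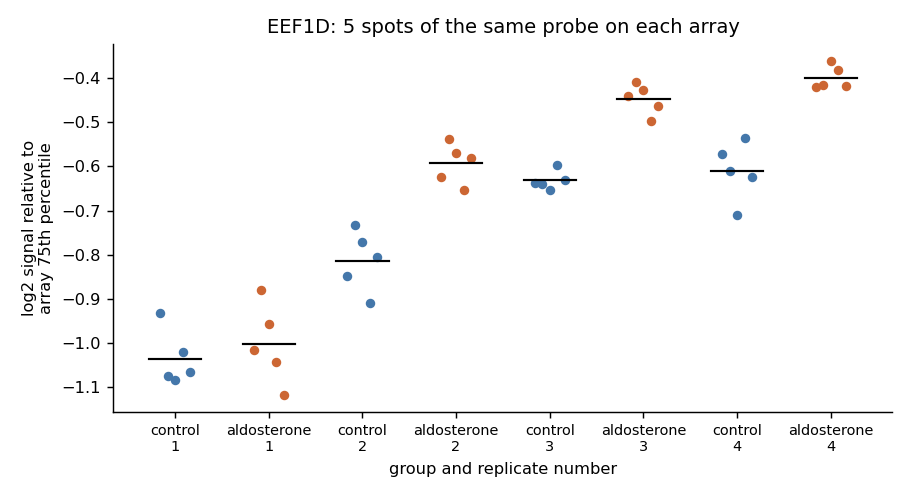
Log2 level of EEF1D relative to the array's 75th percentile for each of the 5 spots of its probe on each array (points; blue control, orange aldosterone), with the array mean as a black line. The spots of an array lie close together, with a standard deviation of at most 0.090, and the arrays of replicate 1 lie lowest in both groups.

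SARS1, seryl-tRNA synthetase, attaches serine to its tRNA and in mammals works outside the multi-synthetase complex. Its level was 1.25, 1.29, 1.15 and 1.93 in controls 1 to 4 and 1.15, 1.39, 1.59 and 1.99 in the aldosterone lungs. Both lungs of replicate 4 stood above the other 6, and in pair 3 the aldosterone lung exceeded its control by 0.45. The difference was 0.13 ± 0.23 (SE, n = 4 per group; adjusted p = 1.00 in limma), with a 95% interval of 0.76-fold to 1.58-fold, and the aldosterone lung was higher in 3 of 4 pairs. Without the aldosterone lung of replicate 4 the difference was -0.026, and without the control lung of that number it was 0.30.

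AIMP2 is a scaffold protein of the multi-synthetase complex. Its level was -3.003, -2.29, -2.30 and -2.07 in controls 1 to 4 and -2.82, -2.69, -2.10 and -2.02 in the aldosterone lungs. Both lungs of replicate 1 were the lowest of their group, and the groups covered nearly the same range. The difference was 0.0077 ± 0.26 (SE, n = 4 per group, adjusted p = 1.00 in limma). Its 95% interval, 0.67-fold to 1.51-fold, was the widest of the 8 probes in the model with the group alone. With the replicate number as a block the standard error was 0.14. AIMP2 was higher in the aldosterone lung of 3 of 4 pairs and lower in the pair of replicate 2, by 0.40.

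EEF1E1, named as an elongation factor, is better known as another scaffold protein of the multi-synthetase complex. On the brighter probe its level was -1.08, -1.05, -1.08 and -0.40 in controls 1 to 4 and -1.12, -0.63, -1.18 and -0.82 in the aldosterone lungs. The control lung of replicate 4 stood above all others, and the aldosterone lung of replicate 2 came next. The pairs went apart in direction: the aldosterone lung was 0.42 higher in pair 2, 0.42 lower in pair 4, and 0.040 and 0.10 lower in pairs 1 and 3. The difference was -0.035 ± 0.20 on this probe and -0.038 ± 0.20 on the other (SE, n = 4 per group; adjusted p = 1.00 in limma for each), with 95% intervals of 0.71-fold to 1.34-fold and 0.71-fold to 1.33-fold. Without the control lung of replicate 4 it was 0.13. The probes, shifted by a single base, kept an offset of 0.071 ± 0.020 (SD) over the 8 arrays, so the high control was high on both.

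**Figure D3:**
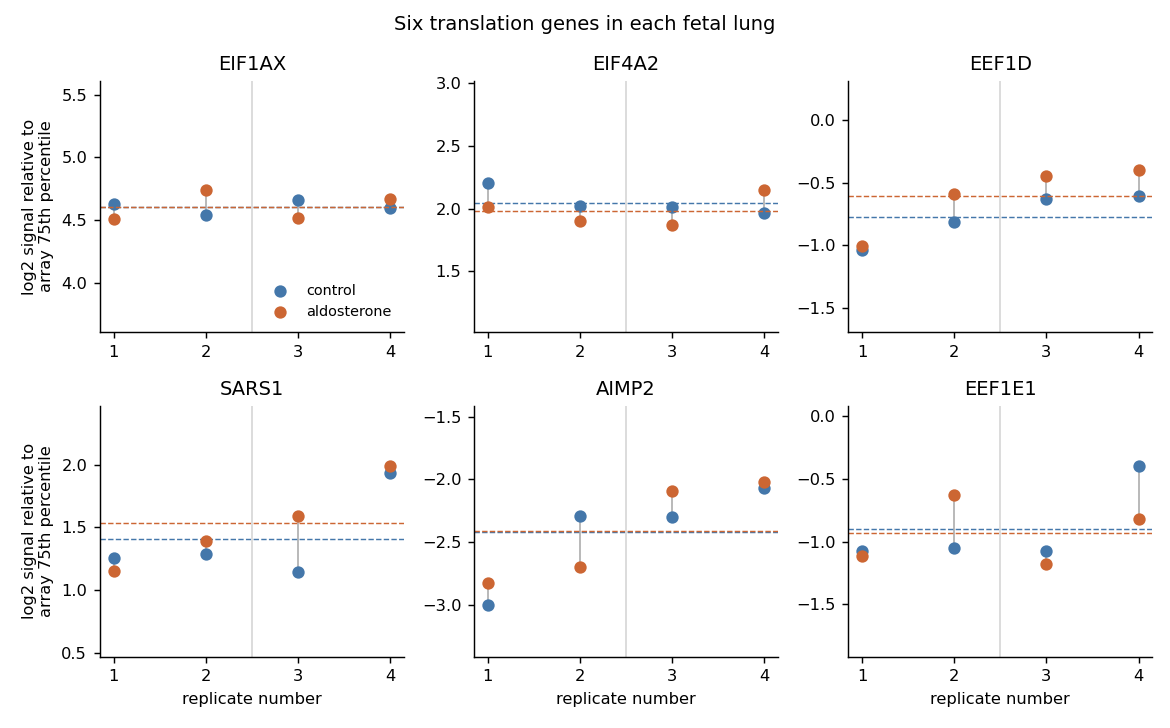
Log2 level relative to the array's 75th percentile (vertical axis, 2 log2 units in every panel) of the 6 genes on their brighter probe, in each lung by replicate number (blue control, orange aldosterone; grey lines join same-numbered lungs, dashed lines are group means). The vertical line parts the arrays of slide row 1 (replicates 1 and 2) from those of row 2. The groups overlap in all 6 panels, and EIF1AX and EIF4A2 vary least.

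**Figure D4:**
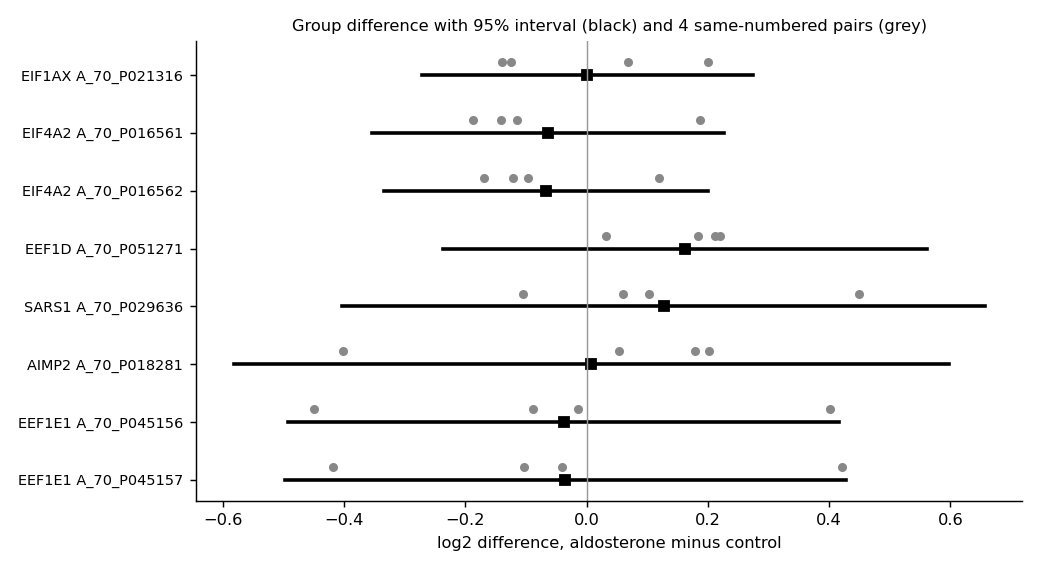
Log2 difference, aldosterone minus control, for the 8 probes (black squares) with limma's 95% interval (black lines) and the difference in each of the 4 same-numbered pairs (grey points). Every interval spans 0, the 4 pairs of EEF1D all lie above 0, and those of EEF1E1 lie on both sides.

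The 6 genes differed in how steady they were from lung to lung. Against the pooled standard deviation within groups over all probes, whose median was 0.29, the initiation factors EIF1AX (0.088) and EIF4A2 (0.12 and 0.077) were steady, EEF1D (0.24) and EEF1E1 (0.30 and 0.29) were close to it, and SARS1 (0.36) and AIMP2 (0.41) were above it. The intervals of the model with the group alone follow that order. With the replicate number as a block the standard errors of the differences ran from 0.11 for EEF1D to 0.16 for EEF1E1. They were 0.14 for AIMP2 and 0.13 for SARS1. By pair, the median difference of the 8 probes was -0.072, 0.15, -0.092 and 0.064 for replicates 1 to 4, above 0 in 2 pairs and below 0 in 2.

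Part of the spread between lungs went with the position of the array on the slide, whose upper row held replicates 1 and 2 of both groups and whose lower row held replicates 3 and 4. AIMP2 was higher in row 2 than in row 1 by 0.58 ± 0.17 and EEF1D by 0.34 ± 0.13 (SE, n = 4 per row, limma with the group in the model). Their unadjusted p in limma was 0.0103 and 0.0351, and their adjusted p 0.141 and 0.198. For SARS1 the difference between rows was 0.39 ± 0.20, with an adjusted p of 0.269 in limma. The other 5 probes lay between -0.069 and 0.11. At an unadjusted p under 0.05 this made 2 of the 8 probes, beside 22.6% of all probes. At the adjusted threshold it was 0 of the 8 beside 0.131% of all probes. The brightness of the arrays moved with the row too: the 75th percentile was 10.45 to 10.73 on the log2 scale in row 1 and 10.23 to 10.47 in row 2. The unscaled signal of EEF1D was 798 to 972 in row 1 and 822 to 938 in row 2, and that of AIMP2 207 to 286 and 288 to 299. The summed level of the 4 measured type II markers was 8.54 to 9.17 in row 1 and 9.10 to 9.30 in row 2, and its part in these differences was not tested. Row, brightness and twin set cannot be told apart here. Within row 1 the group difference of EEF1D was 0.13 and within row 2 it was 0.20. With the row as a block, the smallest unadjusted p in limma among the 8 probes was 0.261, for EEF1D.

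Probes of the same machinery outside the rule, picked out after the probe list was seen, gave a wider view of elongation factor 1 and of the synthetases. Of these 10 probes, all tested, 0 passed the adjusted threshold in limma and 0 had an unadjusted p under 0.05. For EEF1A1, the GTPase that carries aminoacyl-tRNA to the ribosome, the brightest probe gave a difference of 0.30 ± 0.18 (SE, n = 4 per group; unadjusted p = 0.129 in limma). The EEF1A1 probes A_70_P012926 and A_70_P012927 gave -0.081 ± 0.42 and 0.091 ± 0.46, opposite in sign. On A_70_P012926 the level ran from 0.83 in control 1 to 2.72 in control 4, and A_70_P012927 gave 0.54 and 2.43 in these lungs, with row 2 above row 1 by 1.01 and 1.14 (adjusted p = 0.129 and 0.121 in limma). The probes of LOC100125610, which the files list under a gene ID of its own, gave 0.20 ± 0.17 and 0.26 ± 0.17. Whether any of these probes also binds transcripts of another gene was not tested. NARS1, which attaches asparagine, gave 0.14 ± 0.16 with 1 probe and -0.0066 ± 0.19 with another. EIF4G1, the scaffold of the cap-binding complex, gave 0.10 ± 0.23.

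The neighbours of translation were covered thinly, with few of the listed genes measured. Of 21 genes of the stress response through ATF4, the pathway that switches on synthetase genes when amino acids run short, 7 were measured, 0 passed in either direction, and the median difference was 0.087. PSPH, an enzyme of serine synthesis, gave 0.41 ± 0.19 (unadjusted p = 0.0616 in limma) and the factor ATF4 itself 0.22 ± 0.27. Of 22 genes of mTORC1 signalling to translation 3 were measured and 0 passed. The difference of PRKAA2, an energy-sensing kinase that restrains mTORC1, was -0.83 ± 0.30 (unadjusted p = 0.0220 in limma), and its probe stood well above background in all 4 controls but in 2 of the aldosterone lungs. Of 14 amino acid transporters 2 were measured and 0 passed. SLC7A5, which imports large neutral amino acids, gave 0.54 ± 0.15 (unadjusted p = 0.00595, adjusted p = 1.00 in limma). Its groups stood apart, as did those of 1.31% of all probes. The probe was dim, with a mean level of -6.13 in the controls and -5.60 after aldosterone, but well above background in all 4 lungs of each group. The other measured transporter, SLC7A1, an importer of cationic amino acids named here after its value was seen, gave -0.073 ± 0.29 (unadjusted p = 0.809 in limma). Of 15 genes of mRNA ends and termination only PABPC1, the poly(A)-binding protein, was measured (0.15 ± 0.14). Of 13 scaffold and tRNA maturation genes 3 were, with PUS1, which converts uridine in tRNA to pseudouridine, at 0.24 ± 0.16 beside the members AIMP2 and EEF1E1.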

How the data were processed

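The lungs of 8 sheep fetuses, 4 infused with aldosterone and 4 controls, were each measured on their own array, labelled from 450 ng of RNA. Per the file headers, the deposited scanner output gives linear spot intensity from Agilent Feature Extraction 10.1.1.1, with spatial and multiplicative detrending on and its global background correction off. A deposited table of the series is in log2 units: set against the scanner values, each column is log2 intensity less the column's median, and 12 to 262 of its 12762 entries are empty. No source here states how its spots were picked.

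Here, processed signals were put on the log2 scale, centred on the 75th percentile of each array and averaged by probe after 74 outlier values were left out. The 12168 probes well above background on at least 4 arrays were fitted with limma 3.58.1 in R 4.3.3 (two-sided, Benjamini-Hochberg over all of them, threshold 0.05). The fit was tested on simulated data. All arrays shared 1 slide and 1 scan. The p-values over 4 against 4 lungs rest on the spread between lungs with 1 array each. That spread also holds labelling, hybridisation and slide position and, with the group alone in the model, the differences between twin sets. The number of arrays limits the precision.

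The main model held the group alone. After the group means were removed, same-numbered samples correlated at 0.446, 0.275, 0.280 and 0.538 over 12146 probes, against -0.449 to 0.204 for others. Every same-numbered pair thus passed 0.1, and replicate numbers were treated as pairs. Control 2 with aldosterone 1 (0.204) and control 4 with aldosterone 3 (0.110) passed it too. Same-numbered samples are also neighbours on the slide, so the check cannot tell twins from neighbours.

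Gene names came from RefSeq (ARS-UI_Ramb_v3.0), which served for naming only; SARS1 was named from the older symbol in the file. Where a gene had several probes the brightest stood for it. The genes given in full were the 6 of smallest p in each direction, which takes in every member, with EEF1A1 and NARS1 from a list by role, probes of a gene that disagree in sign, and companion-list genes with an unadjusted p under 0.05 or, failing that, the 2 of smallest p. Members and lists were chosen with earlier results of these data known. Alternatives were another normalization, centring, filter and probe choice, the authors' values, the replicate number or slide row as a block, single rows, array weights and leaving out each lung. A planned motif search in promoters was not made, since no promoter sequences were used here.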

Additional observations from a re-analysis of the deposited data

Results flagged for a closer look

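Of 16 sets of 4 lungs checked, 1 for each of the 8 probes in each group, 2 held a lung far from the other 3, and chance alone gives about 1 in 20. Both were the control lung of replicate 4 on the overlapping EEF1E1 probes, and so are a single observation. That lung lay at -0.40 on A_70_P045157, where the other controls lay at -1.05 to -1.08, and at -0.47 on A_70_P045156, where they lay at -1.12 to -1.17.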

How the results depend on the processing

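Under all alternatives 0 of the 8 probes passed the adjusted threshold and 0 had an unadjusted p under 0.05 in limma. Over all probes 0 passed the adjusted threshold under each of them, while the count at an unadjusted p under 0.05 was 228 of 12168 in the main setting, 539 with the replicate block, 343 with the row as a block, 387 in row 2 alone and 1282 with array weights. Leaving out each lung gave 0 of 8 at either threshold, beside 143 to 422 of all probes at the unadjusted one, and a median difference of -0.071 to 0.13 beside -0.00063 to 0.020 over all probes. The highest came without control replicate 4 and was the only one to move by more than the spread of 0.12 between pairs. Without that lung the difference was 0.13 for EEF1E1, 0.12 for AIMP2, 0.30 for SARS1 and 0.22 for EEF1D. It was -0.093 for EIF4A2 and -0.0019 for EIF1AX. With the replicate block, 0 of the 8 probes and 0 of all probes passed, and it changed no call. EEF1D kept its direction under all 18 alternatives, from 0.074 to 0.29. Of these, the replicate block, the row block and the changed filters cannot move its estimate of 0.16. Fits without 1 lung share their other lungs, so the 18 are not independent checks. The other genes changed sign under at least 1 alternative. In the main setting the difference of each of the 8 probes was smaller than its pooled standard deviation within groups. This includes EEF1D, at 0.16 against 0.24. AIMP2 gave -0.049 after normexp and quantile normalization, -0.031 with median centring, -0.051 in the authors' deposited values and -0.11 in array row 1 alone. EIF1AX gave -0.038 with median centring, -0.058 in the authors' deposited values, -0.036 in row 2 alone and -0.015 with array weights. EEF1E1 gave 0.19 in row 1 alone, EIF4A2 0.023 in row 2 alone and SARS1 -0.00044 in row 1 alone. Leaving out single lungs took AIMP2 from -0.19 to 0.15, EIF1AX from -0.043 to 0.035, EEF1E1 from -0.14 to 0.13 and SARS1 from -0.026 to 0.30. A change of centring shifts all probes of an array alike. Over all probes the median difference was 0.0073 in the main setting, -0.032 with median centring and -0.050 in the authors' deposited values. The cause of the other changes was not tested.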
